A study of Homo sapiens with 3 samples.

Results

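THG-1 S264A cells were set against empty-vector cells in a Ras-transformed human keratinocyte line, gene by gene, with RNA sequencing. Of the 55773 gene symbols in the table, 12010 stood at 1 RPKM or more (reads per kilobase of transcript, scaled to library size) in either of these libraries and were compared. A gene was called higher or lower when RPKM + 1 differed at least 2-fold between the S264A and the empty-vector library, that is by 1 or more on the log2 scale. Adding 1 to each value understates the difference of genes with low values.

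The cells were HaCaT, a spontaneously immortalised keratinocyte line from adult human skin. All lines carry HRasG12V, a constitutively active oncogenic HRAS. On top of it the control line carries the empty vector only, another line wild-type THG-1, and the line studied here THG-1 (S264A), a form with alanine in place of a serine. The control line thus carries active Ras as well. All were grown in DMEM with 10% serum. Each line gave 1 library and nothing in the labels names separate cultures or clones. No difference below has a replicate check, and no p-value is given. A counting interval (exact, 95%) stands beside a ratio and covers the sampling of reads only. The values of the wild-type THG-1 line are set beside because that comparison uses the same empty-vector library.

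THG-1 is the product of TSC22D4, a leucine zipper protein of the TSC22 family, whose members act in transcription and in signalling with NRBP and WNK kinases. Keratinocytes that leave the basal layer of a stratified epithelium switch their keratins, make the precursors of the cornified envelope and secrete proteases, protease inhibitors and antimicrobial proteins. NRF2 (NFE2L2) and the aryl hydrocarbon receptor (AHR) are transcription factors that drive enzymes against oxidants and foreign compounds, and ATF4 drives amino acid synthesis and uptake when amino acids run short or the endoplasmic reticulum is stressed.

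TSC22D4 stood at 7.98 RPKM in empty vector, 64.9 in wild type and 51.1 in S264A. It was 6.41-fold higher in S264A than in empty vector (counting interval 5.95 to 6.91) and 0.787 times the wild-type level (0.747 to 0.829), so the targeted gene follows the labels. Reads from the vector and from the cells' own gene cannot be told apart, and the S264A change itself cannot be seen in gene-level values. HRAS, which all lines carry, differed little between them, at 23.9, 27.8 and 22.4 RPKM in the same order.

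The 3 libraries held between 12733479 and 32055052 reads, with 2.29 times as many in empty vector as in S264A. All 8 keratinocyte markers examined were at 1 RPKM or more, with a summed level of 937 RPKM in empty vector and 1288 in S264A. The summed markers of immune cells, fibroblasts, melanocytes and endothelial cells stayed between 0.556 and 4.51 RPKM in those libraries, and CD3D, MS4A1, LUM, PDGFRA, TYR, TYRP1 and TEK were at 0 in both. In a bulk library, fewer cells that express a gene and less RNA of it per cell cannot be told apart.

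Of the 12010 genes compared, 359 were higher in S264A, 99 were lower and 11552 were within 2-fold. With upper-quartile scaling the counts were 241 higher and 149 lower, so the share of higher genes among those called was 61.8% beside 78.4%. The background shares against which the lists below are read are therefore 2.99% higher and 0.824% lower (3.81% in either direction). The median log2 difference of all genes compared was 0.02, and 5% of genes lay below -0.53 and 5% above 0.78. The higher genes were mostly weakly expressed in control cells: their median was 1.06 RPKM in empty vector and 4.92 in S264A, and 175 of them were under 1 RPKM in empty vector. The lower genes went from a median of 2.58 to 0.397 RPKM, and 68 of the 99 were under 1 RPKM in S264A. The counting interval of the ratio lay above 1 for 350 of the higher and below 1 for 82 of the lower genes.

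**Figure D1:**
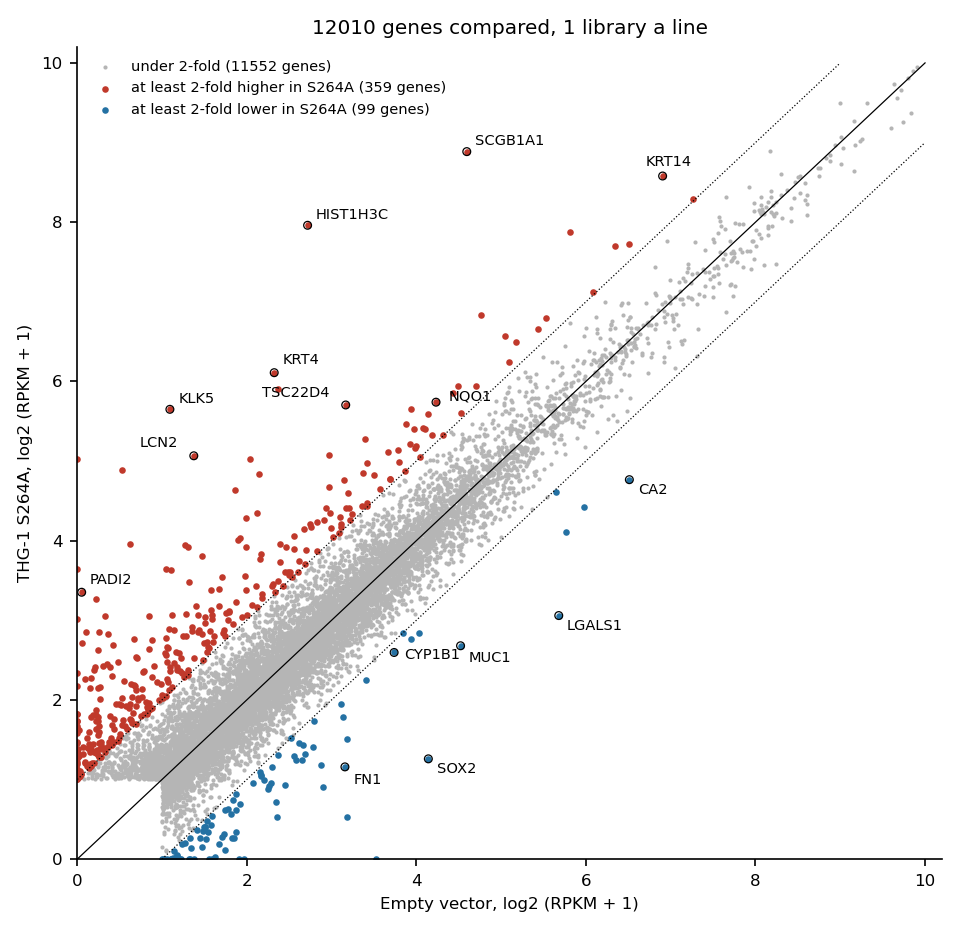
Each point is 1 of the 12010 genes compared, placed by its log2 (RPKM + 1) in the empty-vector library (horizontal axis) and the S264A library (vertical axis); the solid line marks equal values and the dotted lines 2-fold. Genes called higher (359, red) lie mostly at low levels in empty vector, and 99 called lower are blue.

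Of the 23 gene lists examined, the one with the most members higher in S264A was that of keratinocyte differentiation. Of its 91 suprabasal and cornified envelope genes, 40 were compared, 13 of these were higher and none lower (32.5% against the background of 2.99%). Their median log2 difference was 0.72. A gene under 1 RPKM in empty vector was compared only if it was high enough in S264A, which favours higher calls in this and the other lists. The 51 other members, among them LOR (loricrin), KRT2, TGM3, DSG1 and most late cornified envelope (LCE) genes, were under 1 RPKM in both libraries. The higher members came from different steps of the programme, with 3 of 9 keratins, 5 of 11 envelope proteins, 2 of 4 crosslinking and deiminating enzymes, 1 of 5 barrier lipid enzymes and 2 of 11 regulators and surface proteins.

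Among keratins, KRT4, which marks the suprabasal layers of non-cornifying mucosa, stood at 4.0 RPKM in empty vector, 6.31 in wild type and 68.0 in S264A. It was 17.0-fold higher in S264A than in empty vector (15.4 to 18.9) and 10.8-fold higher than in wild type (9.52 to 12.3), so the S264A library was high on its own. Its suprabasal partner KRT13 was high in every library, at 289, 259 and 317 RPKM. KRT10, a keratin of the epidermal spinous layer, stood at 5.68, 32.1 and 17.5 RPKM in empty vector, wild type and S264A, a 3.07-fold difference (2.69 to 3.51) with the wild-type library highest. Its partner KRT1 stayed low at 0.514, 0.0631 and 1.86 RPKM and was within 2-fold of empty vector. KRT16, a keratin of wounded and hyperproliferative skin, went from 0.256 to 7.27 RPKM. Reads of KRT16 can be shared with KRT14 and with keratin pseudogenes, and KRT14, the basal keratin, was itself 3.21-fold higher (119 to 382 RPKM, interval 3.12 to 3.30) while its partner KRT5 was at 367 and 329 RPKM.

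Of 6 simple-epithelial keratins, 2 were higher in S264A and 4 were within 2-fold. KRT23 stood at 0.107 RPKM in empty vector, 3.33 in wild type and 3.42 in S264A, and KRT20 at 0.0169 (1 read), 3.45 and 2.09 RPKM, so both were low in empty vector alone. The abundant members lay closer to empty vector. KRT19 stood at 429, 401 and 381 RPKM. KRT8 stood at 126 RPKM in empty vector, 247 in wild type and 126 in S264A. KRT18 stood at 101, 246 and 104 RPKM and KRT7 at 168, 246 and 165 RPKM. For KRT8, KRT18 and KRT7 it was the wild-type library that was high.

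The cornified envelope genes called higher were IVL and 4 SPRR genes. IVL encodes involucrin, a scaffold onto which other envelope proteins are crosslinked, and stood at 2.77 RPKM in empty vector, 11.5 in wild type and 15.3 in S264A. Small proline-rich proteins bridge the envelope. SPRR1A stood at 1.16, 3.64 and 11.4 RPKM, which is 9.81-fold above empty vector (6.24 to 16). SPRR1B stood at 7.85, 23.7 and 26.2 RPKM, and SPRR3 at 0.585, 2.29 and 3.56 RPKM. For IVL, SPRR1A, SPRR1B and SPRR3 the order was the same, with empty vector lowest and S264A highest, although the THG-1 lines did not differ beyond counting error for SPRR1B (S264A over wild type 1.11, 0.908 to 1.35). SPRR2A was the exception: it stood at 0.616, 37.2 and 4.83 RPKM, so S264A was 7.84-fold above empty vector (4.25 to 15.4) and the wild-type library 7.71-fold above S264A (5.68 to 10.7). The SPRR1 pair and the SPRR2 genes are near-identical copies, and how reads were split between them is uncertain. The crosslinked plakins EVPL (envoplakin; 15.4 to 24.3 RPKM) and PPL (periplakin; 38.5 to 65.2 RPKM), the filaggrin gene FLG (3.39 to 5.44 RPKM) and the transglutaminase TGM1 (6.08 to 4.85 RPKM) were within 2-fold.

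AP-1, the FOS and JUN family of transcription factors downstream of RAS, is known to act on several of these promoters, so their windows are shown. In RefSeq promoters of GRCh38.p14 (250 bases before to 50 after the start), the motif TGANTCA, which reads as TGANTCA on the other strand too, was found in 7.76% of all 27305 promoters and in 4.51% of the 8862 promoters of genes compared. Of the suprabasal members compared, 23 had a promoter in the table and 6 held the motif: IVL, SPRR1A, SPRR1B, SPRR2A, SPRR3 and FLG. Of these 6, 5 were called higher and the median log2 difference of the 6 was 1.74, beside 7 of 17 and 0.88 for the members without it. All 6 lie close together on chromosome 1 and the SPRR genes are related copies, so they do not count as separate cases. The part of the motif was not tested. Over all genes called higher, 24 of 204 promoters (11.8%) held it, and over those called lower 4 of 49 (8.16%). A match is a description of the letters and not a bound site. The windows are given 5′ to 3′ on the gene's strand with the motif in capitals, for IVL from chr1:152908396-152908456 (+), SPRR1A from chr1:152983946-152984006 (+), SPRR1B from chr1:153031035-153031125 (+), SPRR2A from chr1:153057676-153057736 (-) and SPRR3 from chr1:153001552-153001612 (+).
IVL: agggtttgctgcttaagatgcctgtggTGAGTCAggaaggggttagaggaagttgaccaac
SPRR1A: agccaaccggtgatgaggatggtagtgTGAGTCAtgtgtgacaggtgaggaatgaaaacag
SPRR1B: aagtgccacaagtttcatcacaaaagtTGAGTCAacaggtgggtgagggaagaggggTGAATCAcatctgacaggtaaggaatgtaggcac
SPRR2A: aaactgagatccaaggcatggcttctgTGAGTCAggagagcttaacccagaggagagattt
SPRR3: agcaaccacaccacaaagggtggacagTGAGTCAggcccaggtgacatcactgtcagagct

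The first motif began 123 bases before the start of IVL, 108 before SPRR1A, 141 before SPRR1B, 197 before SPRR2A and 170 before SPRR3. The first site of each window is TGAGTCA, and SPRR1B has another, TGAATCA, 111 bases before its start. FOSL1, an AP-1 subunit induced by RAS signalling, stood at 20.6 RPKM in empty vector, 68.4 in wild type and 57.0 in S264A, and was the 1 of 14 RAS-responsive transcription factors called higher. JUN, another subunit, stood at 3.28, 8.77 and 6.68 RPKM and was within 2-fold.

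Peptidylarginine deiminases, which turn arginine into citrulline in keratins and filaggrin, gave 2 calls among the 3 genes compared. PADI2 stood at 0.0364 RPKM in empty vector, 2.22 in wild type and 9.21 in S264A, which is 253-fold above empty vector with a wide interval (122 to 632) and 4.14-fold above wild type (3.50 to 4.92). PADI1 stood at 0.623, 2.00 and 3.34 RPKM. Both were lowest in empty vector and highest in S264A, while PADI3 (0.802, 1.38 and 1.03 RPKM) was within 2-fold. GRHL3, a transcription factor of barrier formation, was 2.90-fold higher (2.43 to 7.04 RPKM, interval 2.49 to 3.38), and the differentiation factors KLF4 (4.54 to 9.71 RPKM) and OVOL1 (4.77 to 9.84 RPKM) fell short of 2-fold on RPKM + 1.

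Kallikreins are secreted serine proteases that cut the junctions between corneocytes, and 5 of the 7 kallikrein genes compared were higher in S264A. KLK5, which starts the cascade, stood at 1.13 RPKM in empty vector, 71.4 in wild type and 49.2 in S264A. KLK7, the chymotrypsin-like member that KLK5 activates, stood at 1.85, 16.8 and 7.21 RPKM. For both the wild-type library was the highest. KLK13 stood at 0.373, 0.391 and 2.84 RPKM, 7.62-fold above empty vector (4.78 to 12.6) and 7.26-fold above wild type (3.75 to 15.7). KLK11 (1.11, 0.757 and 3.37 RPKM) was likewise high in S264A only among the 3 libraries, and KLK10 was 2.84-fold above empty vector (8.17 to 23.2 RPKM). KLK6 (1.67 to 1.26 RPKM) and KLK8 (6.61 to 10.4 RPKM), which lie in the same cluster, were within 2-fold.

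Of 13 protease inhibitor genes compared, 5 were higher and none lower. SERPINB2, an intracellular inhibitor of plasminogen activators, stood at 13.7 RPKM in empty vector, 248 in wild type and 43.1 in S264A, so S264A was 3.15-fold above empty vector (2.92 to 3.39) and wild type 5.76-fold above S264A (5.46 to 6.07). The elastase inhibitors PI3 (0.270, 45.9 and 4.45 RPKM) and SLPI (25.1, 131 and 60.4 RPKM) lay between the other libraries in the same way. SERPINB3 (0.562, 1.72 and 3.09 RPKM), an inhibitor of cysteine proteases that shares sequence with SERPINB4, and the broad inhibitor A2ML1 (0.0940, 1.12 and 1.63 RPKM) were highest in S264A. SPINK5, the inhibitor of KLK5 and KLK7, stood at 10.0, 3.12 and 5.99 RPKM, and its log2 difference of -0.66 was within 2-fold. Over the whole list of 25 proteases and inhibitors, 11 were higher (44%) and the median log2 difference was 0.58.

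Of 16 antimicrobial and S100 genes compared, 9 were higher (56.2%), with a median of 1.34. All 5 antimicrobial and acute-phase members compared were higher, and 12 were not compared because they were under 1 RPKM in both libraries. The serum amyloid genes SAA1 (0.122, 223 and 3.82 RPKM) and SAA2 (0.140, 77.0 and 2.5 RPKM), which share sequence, differed most from wild type: SAA1 was 58.2-fold above S264A there (42.8 to 81.4). S100A7, a skin antimicrobial protein, stood at 0.233, 31.5 and 4.39 RPKM, and S100A8 at 0.186, 14 and 2.34 RPKM. S100P, another calcium-binding protein, was level with wild type, at 2.97, 20.1 and 18.5 RPKM. The recognition protein PGLYRP3 was higher in S264A (1.76 RPKM) than in empty vector (0.213) and wild type (0.402). Set directly against wild type, 8 of 18 members were lower in S264A and 1 was higher, beside 2.23% and 1.55% of all genes in that comparison.

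**Figure D2:**
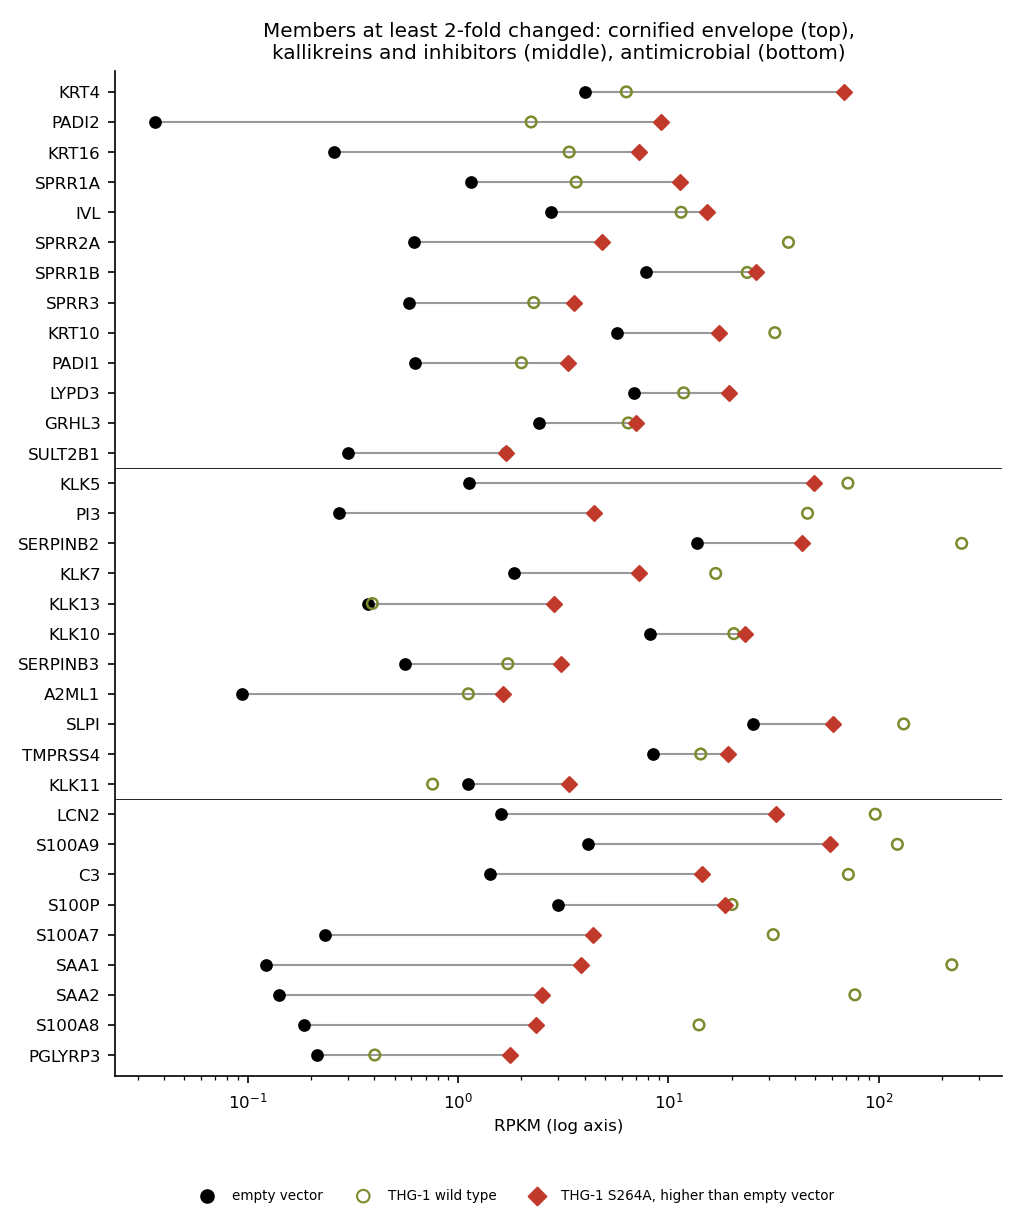
RPKM (horizontal log axis) of the members called in S264A against empty vector in the cornified envelope, kallikrein and inhibitor, and antimicrobial lists; black dots are empty vector, open circles wild type and red diamonds S264A, 1 library each. Every diamond lies right of its black dot, since called members only are drawn and none was lower; KRT4 and KLK13 have wild type near empty vector, and SAA1 and PI3 have wild type far above S264A.

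Several mucosal and secretory genes were high in S264A and low in both other lines. Of 33 genes, 14 were compared, 10 of these were higher than in empty vector (71.4%) and 2 lower (14.3%), with a median log2 difference of 1.12. The list was chosen with earlier results of these data known, and members low in empty vector were compared only if high in S264A. Both favour a large share of higher calls. Upper-quartile scaling left 6 higher. Against wild type, 8 of 14 were higher in S264A and 1 lower, with a median of 1.43. In wild type against empty vector, 2 of 13 were higher and 4 lower, with a median of -0.42. Of all genes, 3.78% were called in either direction in the former comparison, and 4.53% were higher and 1.54% lower in the latter. The 19 members not compared include the secreted mucins MUC5AC and MUC5B and the trefoil genes TFF1 and TFF3.

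CEACAM5, a glycosylphosphatidylinositol-anchored adhesion glycoprotein of mucosal surfaces, stood at 1.78 RPKM in empty vector, 2.25 in wild type and 13.0 in S264A, 7.29-fold above empty vector (6.19 to 8.62). CEACAM6 stood at 4.45, 3.06 and 11.2 RPKM and CEACAM1 at 0.582, 1.81 and 2.58 RPKM. CEACAM genes share sequence, so the split between them is uncertain. LYPD2 (0.840, 0.925 and 5.76 RPKM) and PSCA (1.47, 0.846 and 4.21 RPKM), which encode small surface proteins of the Ly6 family, were high in S264A only. They lie beside LYNX1, which was also called higher and is named after its value was seen. ALPP, placental alkaline phosphatase, stood at 14.7, 3.62 and 41.3 RPKM, 2.80-fold above empty vector (2.61 to 3.00) and 11.4-fold above wild type (9.60 to 13.6). Its near copy ALPPL2 followed the same order at 1.43, 0.504 and 4.0 RPKM. SCGB1A1, a secretoglobin of airway club cells, was high in both THG-1 lines (23.2, 369 and 472 RPKM).

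Membrane mucins went different ways. MUC16, a very large transmembrane mucin, stood at 9.31 RPKM in empty vector, 16.3 in wild type and 27.9 in S264A. MUC1 stood at 22.0, 10.5 and 5.41 RPKM, 4.06-fold lower in S264A than in empty vector (3.64 to 4.54). MUC4 (3.75, 1.98 and 7.39 RPKM) had a log2 difference of 0.82 from empty vector and was 3.74-fold above wild type (3.40 to 4.11). CA2, a carbonic anhydrase, was lower in both THG-1 lines (90.3, 30.5 and 26.2 RPKM).

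The matrix and mesenchymal list was the one with most members lower. Of 63 genes, 32 were compared, 7 were lower (21.9% against the background of 0.824%) and 4 higher (12.5%), and the median was -0.06. Most members that define mesenchymal cells were nearly silent in all lines: VIM was at 0.0691, 0.0475 and 0.0431 RPKM, and COL1A2, COL3A1, LUM, POSTN and ZEB1 were under 1 RPKM throughout. The members called lower were genes that the empty-vector keratinocytes expressed at 2.19 RPKM or more. A lower call needs at least 1 RPKM in empty vector by the rule, so members silent there could not be called lower.

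FN1, fibronectin, stood at 7.92 RPKM in empty vector, 12.3 in wild type and 1.23 in S264A. It was 6.43-fold lower than in empty vector (5.72 to 7.26) and 9.99-fold lower than in wild type (8.86 to 11.3). FBN2, a fibrillin of elastic microfibrils, stood at 4.13, 2.18 and 0.443 RPKM. LGALS1, galectin-1, a secreted lectin, stood at 50.2, 27.1 and 7.33 RPKM, which is 6.85-fold lower than in empty vector (5.66 to 8.36). CDH2, N-cadherin, stood at 2.19, 1.46 and 0.144 RPKM. S264A was the lowest of the 3 libraries for all 4, and for TGFBI, a matrix protein induced by TGF-beta, at 49.0, 51.6 and 23.3 RPKM. The matrix proteases MMP1 (15.3, 11.1 and 6.15 RPKM) and MMP10 (2.34, 0.313 and 0.0811 RPKM, the last from 2 reads) were lower as well.

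Higher matrix members included TIMP3, SPARC and MMP14. TIMP3, a matrix-bound metalloproteinase inhibitor, stood at 1.48, 6.21 and 10.1 RPKM in empty vector, wild type and S264A (6.84-fold, 5.86 to 8.0). SPARC, a collagen-binding glycoprotein, was at 0.00646 RPKM in empty vector, from 1 read, and at 1.61 in S264A. MMP14, a membrane metalloproteinase, stood at 15.5, 46.7 and 32.2 RPKM, so S264A lay between the other lines. Directly against wild type, 11 of 32 members were lower in S264A and 4 higher, beside 2.23% and 1.55% of all genes in that comparison.

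**Figure D3:**
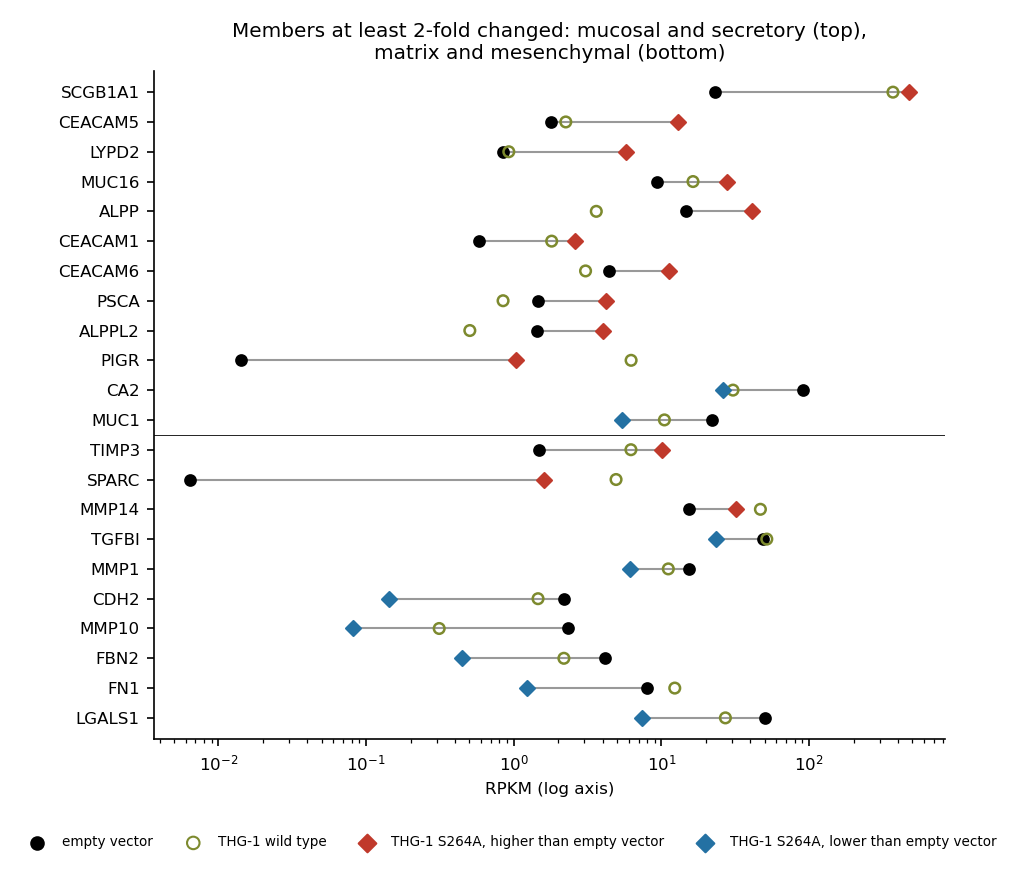
RPKM (horizontal log axis) of members called in the mucosal and secretory list (top) and the matrix and mesenchymal list (bottom); black dots are empty vector, open circles wild type and diamonds S264A (red higher, blue lower than empty vector), 1 library each. The S264A value of ALPP (41.3 RPKM) lies above and that of FN1 (1.23 RPKM) below both other lines.

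The calls among xenobiotic metabolism genes fell on a few enzymes. Among 14 AHR pathway genes compared, 2 were higher (14.3%), 1 was lower (7.14%) and the median was 0.11. AHR itself stood at 21.4 RPKM in empty vector, 9.47 in wild type and 14.3 in S264A, 1.5-fold lower in S264A than in empty vector (1.41 to 1.60) and within 2-fold. ALDH3A1, which oxidises aromatic and lipid aldehydes, stood at 9.67, 3.09 and 21.2 RPKM. NQO1, a quinone reductase driven by AHR and NRF2 alike, stood at 17.8, 24.3 and 52.4 RPKM. S264A was the highest library for both. CYP1B1, a P450 that AHR drives, went the other way, at 12.3, 2.36 and 5.04 RPKM (2.45-fold lower than in empty vector, 2.21 to 2.72). CYP1A1, the usual readout of AHR, was under 1 RPKM in every library, and the AHR target TIPARP was level at 8.0, 7.56 and 7.68 RPKM.

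Of 71 NRF2 and xenobiotic enzyme genes, 58 were compared, 8 were higher (13.8%) and none lower, and the median was 0.20. The regulators NFE2L2 (14 to 11.2 RPKM from empty vector to S264A) and KEAP1 (14.6 to 13.1 RPKM) were within 2-fold. The calls gathered among aldo-keto and quinone reductases, where 4 of 9 were higher: NQO1 and the 3 neighbouring genes AKR1C1, AKR1C2 and AKR1C3, which reduce steroids and carbonyls. AKR1C1 stood at 0.725, 1.19 and 4.13 RPKM, AKR1C2 at 4.52, 9.61 and 14.1 RPKM and AKR1C3 at 1.44, 1.52 and 7.46 RPKM. AKR1C3 was 5.18-fold above empty vector (4.40 to 6.13) and 4.89-fold above wild type (3.89 to 6.21). AKR1C1 and AKR1C2 are near-identical and share reads.

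The other 4 higher members were ALDH3A1, SRXN1, FTL and OSGIN1. SRXN1, which repairs oxidised peroxiredoxins, stood at 8.20 RPKM in empty vector, 25.5 in wild type and 20.3 in S264A. FTL, the ferritin light chain, stood at 152, 227 and 312 RPKM, while the heavy chain FTH1 stood at 857, 859 and 613 RPKM with a log2 difference of -0.48. OSGIN1, a growth inhibitor induced by oxidised lipids, stood at 1.25, 2.54 and 4.31 RPKM. None of 13 glutathione genes was called, where the background of 3.81% would give less than 1, and the subunits of the enzyme that starts glutathione synthesis were at 5.26 and 6.90 RPKM (GCLC) and 5.61 and 4.92 RPKM (GCLM) in empty vector and S264A. TXNRD1, thioredoxin reductase, was at 14.6 and 13.3 RPKM. HMOX1, haem oxygenase, was under 1 RPKM in both libraries.

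Promoter windows are shown for 3 members of the NRF2 list that held the antioxidant response element and were not called. Other members, NQO1 and SRXN1 among them, were called higher. The antioxidant response element was searched as TGACNNNGC on both strands, and 13.6% of all promoters and 15.6% of those of genes compared held it. Of 44 NRF2 list members compared with a promoter in the table, 11 held it and none of these was called, with a median log2 difference of 0.21. Of the 33 without it 7 were called higher, with a median of 0.22. The window searched is short and holds no distal enhancer. The windows, with the element in capitals, are from GRCh38.p14, for GCLM chr1:93909431-93909491 (-), TXNRD1 chr12:104215653-104215715 (+) and GSTP1, a glutathione transferase, chr11:67583719-67583781 (+). In GCLM the element lies on the other strand, and in GSTP1 it overlaps the AP-1 motif.
GCLM: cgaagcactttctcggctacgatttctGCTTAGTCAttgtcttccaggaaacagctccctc
TXNRD1: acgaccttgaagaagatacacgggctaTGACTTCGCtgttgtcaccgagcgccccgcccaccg
GSTP1: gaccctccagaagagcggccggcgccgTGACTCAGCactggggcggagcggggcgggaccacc

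Amino acid stress genes gave 4 calls. Of 76 genes of the ATF4 list, 65 were compared. Of these, 4 were higher (6.15% against the background of 2.99%) and none lower. The median was 0.09 beside 0.02 for all genes. ATF4 was at 61.8 RPKM in empty vector, 86.7 in wild type and 64.1 in S264A, and its partner DDIT3 at 4.69, 5.80 and 7.08 RPKM. TRIB3, a pseudokinase that ATF4 induces and that dampens it, was the 1 of 9 regulators called, at 6.62, 20.8 and 20.3 RPKM. Of 16 amino acid synthesis genes, 3 were higher. CTH, which makes cysteine from cystathionine, stood at 0.840, 1.76 and 3.87 RPKM (4.61-fold above empty vector, 3.40 to 6.30, and the highest in S264A). GPT2, a mitochondrial alanine aminotransferase, stood at 3.34, 6.62 and 8.01 RPKM. ASS1, which makes the precursor of arginine, stood at 45.1, 254 and 110 RPKM and was highest in wild type.

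The other members of the ATF4 list that were compared were within 2-fold of empty vector. ASNS, asparagine synthetase, stood at 5.33 RPKM in empty vector and 7.0 in S264A, a ratio of 1.31 (1.16 to 1.48). PHGDH, the first enzyme of serine synthesis, stood at 28.2 and 19.5 RPKM and PSAT1, the second, at 38.0 and 55.1 RPKM. None of 10 amino acid transporters was called, with the cystine carrier SLC7A11 at 4.66 and 7.37 RPKM and the leucine carrier SLC7A5 at 252 and 280 RPKM. None of 20 aminoacyl-tRNA synthetases was called, and their median was -0.00, with a range of -0.83 to 0.73. None of 10 stress output genes was called, with DDIT4, an inhibitor of mTORC1, at 131, 88.5 and 70.8 RPKM (log2 difference -0.88). With 3.81% of all genes compared called in either direction, few calls were to be expected in groups of 10 or 20 genes.

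The C/EBP-ATF response element, searched as TGATGNAA on both strands, was in 3.67% of all promoters and in 1.57% of those of genes compared. Of 50 ATF4 list members compared with a promoter in the table, 12 held it. None of the 12 was called, their median log2 difference was 0.20 and they ranged from -0.57 to 0.70. The 38 without it had a median of 0.13 and 3 calls. The windows of ASNS (chr7:97872442-97872503, minus strand) and CHAC1 (chr15:40953235-40953296, plus strand; a glutathione-degrading enzyme at 2.71 and 3.37 RPKM) in GRCh38.p14 show the element in capitals, on the other strand in CHAC1.
ASNS: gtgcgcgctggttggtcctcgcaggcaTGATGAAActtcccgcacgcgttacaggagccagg
CHAC1: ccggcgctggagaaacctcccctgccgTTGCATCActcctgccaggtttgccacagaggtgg

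Chaperones and unfolded protein response genes of the endoplasmic reticulum gave no call. None of 29 genes of that list was called, of which 17 were chaperones, and the median was 0.01. Of all genes compared 3.81% were called in either direction, so few calls were to be expected in a list of this size. HSPA5, the main chaperone of the endoplasmic reticulum, was at 109, 111 and 111 RPKM. HERPUD1, which acts in the disposal of misfolded proteins, was the furthest above 0 (3.37 to 7.68 RPKM, log2 difference 0.99), and CANX, calnexin, the furthest below (75.4 to 45.1 RPKM, -0.73).

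Many inflammatory genes stood between empty vector and wild type in S264A, with some exceptions. Of 33 NF-kB target and IL-1 family genes compared, 5 were higher (15.2%), 1 was lower and the median was 0.55. Against wild type, 16 of 39 were lower in S264A and none was higher, with a median of -0.90. Of all genes in that comparison, 2.23% were lower and 1.55% higher. LIF, a cytokine of the IL-6 family, stood at 1.91, 33.4 and 5.32 RPKM in empty vector, wild type and S264A. CXCL16, a membrane-bound chemokine, stood at 4.88, 30.6 and 15.6 RPKM. IL1RN, the antagonist of the IL-1 receptor, was nearer to wild type (7.62, 19.8 and 17.1 RPKM), as was NFKBIZ, a nuclear NF-kB cofactor (1.88, 5.40 and 5.07 RPKM). CSF1, a macrophage growth factor, was the 1 lower member, at 3.80, 3.30 and 0.895 RPKM. Of 35 interferon-stimulated genes compared, OAS2 (1.09, 14.2 and 5.35 RPKM) and XAF1 (0.215, 6.12 and 1.70 RPKM) were higher, and RSAD2, an antiviral enzyme, was lower (2.42, 3.96 and 0.546 RPKM). Against wild type 13 of 38 were lower and 2 higher, beside the same 2.23% and 1.55% of all genes. HERC5, the ligase for ISG15, was among the higher members, at 0.461 RPKM in wild type and 6.37 in S264A. In S264A HERC5 was within 2-fold of empty vector, so the wild-type library was the low one.

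Among 33 RAS-MAPK output genes compared, 5 were higher (15.2%) and none lower, with a median of 0.32. DUSP5, a nuclear phosphatase of ERK, stood at 1.06, 23.4 and 5.86 RPKM. DUSP6, its cytoplasmic counterpart, stood at 13.6, 25.3 and 28.4 RPKM. The feedback genes thus differed in whether S264A was near wild type or between the other lines.

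Among cell junction genes, 3 of 32 were higher and 1 lower. Connexins form gap junction channels, and they went both ways: GJB2 (0.694, 4.79 and 3.41 RPKM) was higher in both THG-1 lines, and GJA1 (8.05, 2.22 and 1.85 RPKM) was lower in both. CDH1, E-cadherin, stood at 22.1, 40.2 and 47.6 RPKM, 2.15-fold above empty vector (2.06 to 2.25). None of 12 tight junction genes was called, where 3.81% of all genes compared were, so few calls were to be expected. Among 14 retinoid genes compared, CRABP2, a retinoic acid carrier, was higher (14.3, 58.8 and 49.4 RPKM), and DHRS9, a retinol dehydrogenase, stood at 0.308, 0.817 and 2.47 RPKM. Of 10 basal keratins and lineage factors, KRT14 was higher and SOX2 lower. None of 16 basement membrane and integrin genes was called, to be read beside the same 3.81%. SOX2, a stem cell factor of stratified epithelia, stood at 16.6, 0.626 and 1.39 RPKM in empty vector, wild type and S264A, and its 11.9-fold difference (8.98 to 16.2) was among the largest in that direction.

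The lists of growth and housekeeping functions gave 0 to 2 calls each, to be read against the background of 2.99% higher and 0.824% lower. None of 35 cell cycle genes was called (median -0.17), none of 25 p53 targets (0.09), 1 of 34 sterol and fatty acid genes was higher (MVD; median -0.02) and 1 of 35 hypoxia and glycolysis genes was lower (CA9; median -0.22). The TGF-beta list had 1 higher and 1 lower of 19, and of 10 genes of the TSC22 family and its partners TSC22D4 alone was called. Of 79 ribosomal protein genes, 1 was lower and none higher (median -0.17). Among 29 histone genes, HIST1H3C (5.57, 119 and 248 RPKM; 44.5-fold above empty vector, 35.6 to 56.3) and HIST1H3E (6.82, 13.9 and 24.5 RPKM) were higher. Histone genes share sequence and most of their transcripts lack a poly(A) tail, and their median was -0.08.

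**Figure D4:**
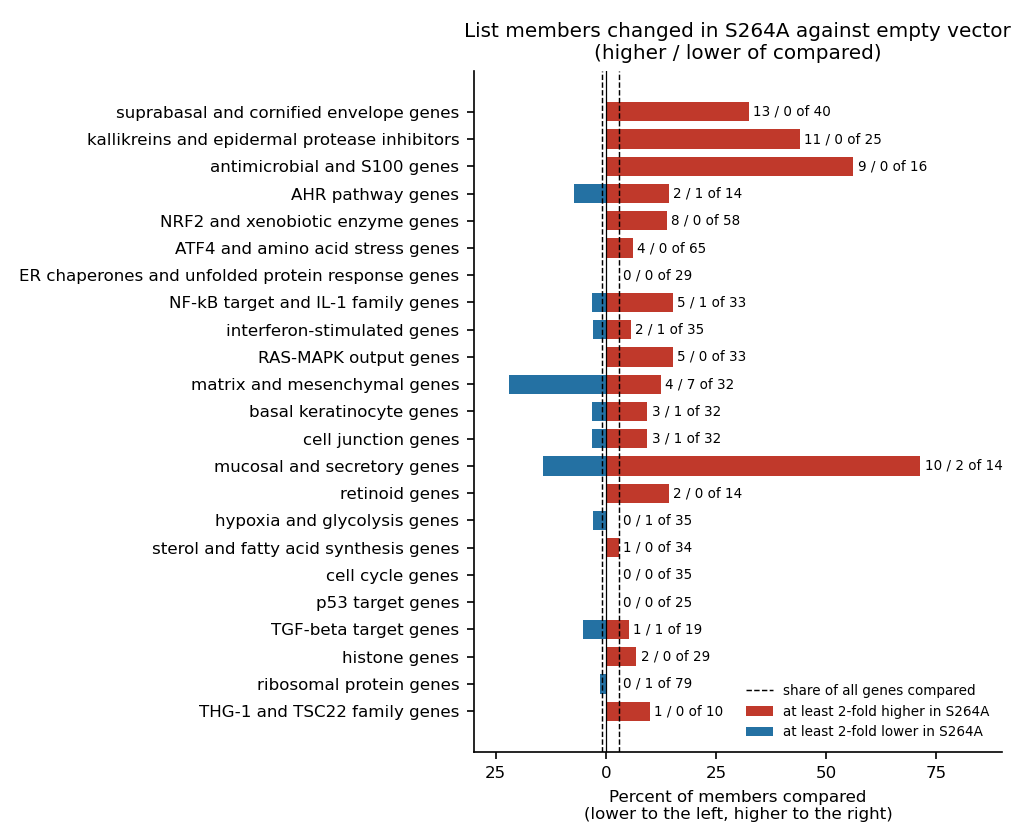
Share of the members compared in each of 23 gene lists that were called higher (red, to the right) or lower (blue, to the left) in S264A against empty vector; dashed lines are the shares of all 12010 genes (2.99% and 0.824%), and the counts stand at the bars. The mucosal (71.4%), antimicrobial (56.2%), kallikrein (44%) and suprabasal (32.5%) lists reach furthest right and the matrix list (21.9%) furthest left. The lists were chosen with earlier results of these data known, which favours large shares.

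Some neighbouring genes shared a call. On chromosome 1, 9 of the 10 genes compared in the stretch from IVL to S100A7 were higher (IVL, SPRR1A, SPRR3, SPRR1B, SPRR2A, PGLYRP3, S100A9, S100A8 and S100A7), and SPRR2D was the other. The kallikrein cluster gave 5 of 7 and the AKR1C cluster 3 of 3. The stretch with most higher genes lay on chromosome 20, where 15 of 19 genes from ZCCHC3 to PCED1A were higher, TRIB3 and SRXN1 among them. Each stretch was drawn from a called gene to a called gene, which favours these counts. Just outside the stretch on chromosome 1, FLG (log2 difference 0.55) and S100A6 (0.01) were within 2-fold. Of 278 higher genes that could be placed in RefSeq gene order, 39.2% had another higher gene within 3 places, beside 12.1% of the other genes placed. Of 66 lower genes placed, 6 (9.09%) had another lower gene within 3 places, beside 3.61%.

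Medians also differed between chromosomes. The median log2 difference was 0.34 on chromosome 16, where 426 of 514 genes were above 0, and -0.29 on chromosome 5, where 113 of 450 were above 0. It was lower still on chromosomes 8 (-0.33), 22 (-0.32) and 18 (-0.31). It was 0.01 on chromosomes 2 and 12. The medians of wild type against empty vector were 0.11 on chromosome 16 and -0.05 on chromosome 5. On chromosomes 8, 22 and 18 they were -0.36, 0.17 and -0.11. Stretches were then marked in which the median of 50 neighbouring genes passed 0.4 in either direction, a rule chosen after the values were seen. On the long arm of chromosome 16, from N4BP1 to GAS8, 227 of 231 genes were above 0, with a median of 0.61 in S264A and 0.13 in wild type. On chromosome 20, from ZCCHC3 to TPX2, 95 of 95 were above 0, with medians of 0.70 and 0.66. On chromosome 5, from RASA1 to MATR3, 3 of 116 were above 0, with medians of -0.47 and -0.19. On chromosome 8, from RIPK2 to VPS13B, 3 of 36 were above 0, with medians of -0.43 and -0.54. The choice of the stretches favours these counts. DNA copy number was not measured, and its part in these steps was not tested.

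These stretches hold a share of the named genes. The higher stretches contain 45 of the 278 placed higher genes (16.2%), beside 3.11% of all genes placed, and the lower ones 6 of 66 lower genes (9.09%), beside 1.45%. TRIB3 and SRXN1 lie on chromosome 20 with FKBP1A, a calcineurin-binding immunophilin at 21.5 RPKM in empty vector and 60.5 in S264A. The median log2 difference of the 10 nearest genes was 1.23 for TRIB3, beside its own 1.48, and 1.29 for SRXN1, beside its own 1.21. NQO1 (1.51 beside 0.70 for its 10 nearest genes), OSGIN1 (1.24 beside 0.70), CDH1 (1.07 beside 0.64) GPT2 (1.05 beside 0.60) and HERPUD1 (0.99 beside 0.59) lie on chromosome 16. Taking the median of 50 neighbours off each gene left NQO1, OSGIN1, SRXN1, TRIB3, CDH1, GPT2, MVD, FTL, TGFBI, KLK11, MMP14, TMPRSS4, IL1B, ALPPL2 and SULT2B1 under 2-fold, and the higher NRF2 members went from 8 to 4 and the higher ATF4 members from 4 to 2. CTH (1.4 beside -0.19), LGALS1 (-2.62 beside -0.21), FBN2 (-1.83 beside -0.43) THBD (2.70 beside 0.64) and CALB2 (2.99 beside 0.57) stood well apart from their neighbours. Of the 278 higher genes placed 199, and of the 66 lower genes placed 49, kept their call. Genes without a place in RefSeq order had no neighbours to subtract and are left out of these counts.

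**Figure D5:**
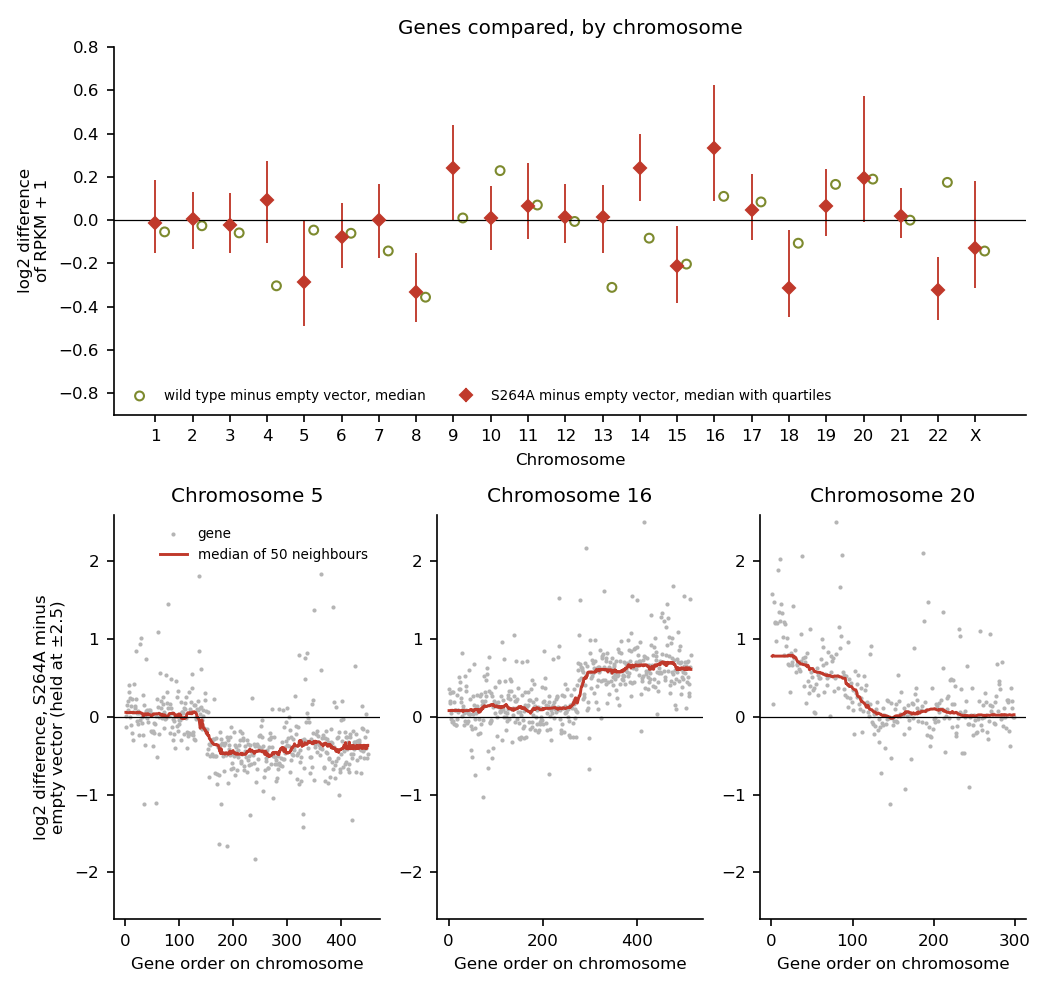
Top, median log2 difference of RPKM + 1 of the genes compared on each chromosome, S264A minus empty vector (red diamonds, bars from the first to the third quartile) and wild type minus empty vector (open circles). Bottom, genes of chromosomes 5, 16 and 20 in their order, with the median of 50 neighbours as a red line, which passes 0.4 on the long arm of chromosome 16 and at the start of chromosome 20 and -0.4 on chromosome 5.

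The largest differences of all were spread over genes of many kinds. At 8-fold or more on RPKM + 1, 13 genes were higher and 1, MIR143HG, was lower. THBD, thrombomodulin, an anticoagulant receptor also made by suprabasal keratinocytes, stood at 3.42 RPKM in empty vector, 8.91 in wild type and 27.7 in S264A (8.10-fold above empty vector, 7.29 to 9.02). MEOX1, a homeobox gene, stood at 0.542, 2.76 and 14.5 RPKM, and CCDC88C, a regulator of Dishevelled in Wnt signalling, at 0.0351, 1.21 and 5.58 RPKM. For these 3 the S264A library was highest. CALB2, the calcium buffer calretinin, was level between the THG-1 lines (3.11, 32.9 and 31.6 RPKM), and complement C3 was highest in wild type (1.42, 71.7 and 14.4 RPKM). Some large differences were in pseudogenes: PPIAP22 and BZW1P2 were listed at 0 in empty vector and at 31.5 and 11.5 RPKM in S264A, at least 131-fold and 68.6-fold higher against a floor of 3 reads per library. Their parent genes were not higher to a like extent, with PPIA at 180 and 132 RPKM and BZW1 at 33.7 and 35.5 RPKM, and such copies share reads with their parents.

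Among the lowest genes, MIR143HG, the host transcript of a smooth-muscle microRNA pair, stood at 10.5 RPKM in empty vector and 8.28 in wild type and was listed at 0 in S264A, at least 874-fold lower than in empty vector against a floor of 3 reads. LYPD1, a Ly6 family protein, stood at 8.06, 0.260 and 0.443 RPKM, and RHOBTB3, a Golgi-associated ATPase, at 53.5, 21.1 and 16.2 RPKM. Both were low in the 2 THG-1 lines. CFI, a complement protease, went from 2.08 RPKM in empty vector to 0.101 in wild type and 0.0184 in S264A, the last from 1 read. ROBO1, a guidance receptor, went from 2.55 to 0.390 and 0.197 RPKM.

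At the edge of the 2-fold rule, MEST (0.216 RPKM in empty vector and 1.43 in S264A, log2 difference 1.00) and LMO4 (4.73 and 1.86 RPKM, -1.0) were just inside. SEMA7A (0.659 and 2.30 RPKM, 0.99) and BLVRA (10.3 and 4.67 RPKM, -0.99) were just outside.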

How the data were processed

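RNA from the 3 lines was sequenced on a NextSeq500 instrument, per the labels' protocols, as 1 library a line. The authors deposited a table with an RPKM column for each library, per the file headers, and a further column that was found from its values to be quantile-normalised across libraries. The submitters' processing notes name hg19 as the build. Neither aligner, counter, strandedness nor annotation could be read from labels or headers (not given in the sources used here), so reads of overlapping and antisense genes cannot be told apart.

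The table has 57773 rows. Where a symbol had several rows (234 symbols), the one with the highest mean stands for it. Whole reads were recovered from the RPKM steps with GENCODE 29 transcript lengths as a guide, in 25994 of 25998 rows above 0 (tolerance 0.001 reads). Where several lengths fitted, the one nearest to the annotated length was taken (38.8% of rows at 1 RPKM or more) or, with none annotated, the smallest (7.4%), so for these the reads, and the intervals built on them, are estimates. 1 read in a transcript of 1 kb was worth 0.0312 RPKM in the empty-vector, 0.0785 in the wild-type and 0.0713 in the S264A library. The recovery was tested on simulated data, with rows of annotated length only. The rows that took another length were not covered by that test.

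Genes at 1 RPKM or more in either library were compared by the log2 ratio of RPKM + 1, with calls at 2-fold. Ratios are of plain RPKM, with exact Clopper-Pearson intervals (95%) of the reads. The 23 lists hold 945 measured genes, of which 722 were compared. The genes named are the 20 furthest from 0 in each direction, the first 3 symbols of each role in a list and the 6 members of a list furthest from 0; others were chosen after their values were seen. A few genes that the rule names are not reported here. Members and lists were chosen with earlier results of these data known. Promoters and gene order came from RefSeq (GRCh38.p14), matched by symbol; where a gene has several starts, the first listed was used. Alternatives were 2 other pseudocounts, 2 filters, the deposited normalised values, 3 scalings and a 3-fold rule, and, added after seeing the data, subtraction of the chromosome's or the neighbours' median. Python 3.11.15, pandas 2.3.3, NumPy 2.4.6, SciPy 1.17.1 and Matplotlib 3.10.9 were used.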

Additional observations from a re-analysis of the deposited data

How the results depend on the processing

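With 1 library a line, no library could be left out and no difference could be tested. No paired analysis was possible because each line had 1 library. The depth limits low genes: in the S264A library 1 read in 1 kb is 0.0713 RPKM. Of 110 counts recomputed under 11 alternatives, 76 moved by under 1.5 times and 34 by more. Leaving out the filter could not change any count, since genes under 1 RPKM in both libraries cannot differ 2-fold on RPKM + 1. Median-ratio scaling multiplied the S264A values by 1.0019 and could change little. The 76 therefore include values that were fixed or nearly fixed in advance. None of the 121 named genes followed changed sign. These were the 20 furthest genes in each direction and the list members called, so all began at 2-fold or more and a change of sign was unlikely. Named genes within 2-fold were not followed. The last 2 alternatives were chosen after seeing the data.

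The 359 higher and 99 lower genes became 695 and 246 with a pseudocount of 0.1, 85 and 9 with a pseudocount of 5, 178 and 26 with a filter at 5 RPKM, 90 and 19 at 3-fold, and 241 and 149 with upper-quartile scaling. That scaling moved the median of all genes by -0.17 and the share of higher among all called genes from 78.4% to 61.8%. Among the genes it left under 2-fold were IL1B, IL1RN, LIF, ALDH3A1, DUSP6, FTL, GPT2, MVD, CDH1, CEACAM6, PSCA, ALPPL2, KLK11, TMPRSS4, MMP14, DUSP2, NFKBIZ, PIGR and SULT2B1, and the medians of the AHR (-0.04), ATF4 (-0.07), endoplasmic reticulum (-0.18), interferon (-0.07), basal (-0.19), retinoid (-0.12), p53 (-0.08) and TSC22 family (-0.07) lists changed sign. The matrix median became 0.08 with the filter at 5 RPKM.

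With a pseudocount of 5 the higher members were 8 suprabasal, 4 kallikrein, 4 antimicrobial, 4 mucosal, 3 NRF2, 2 ATF4 and 1 AHR, and 2 matrix members were lower. With a pseudocount of 0.1, 22 suprabasal members were higher. With the filter at 5 RPKM, 6 kallikrein, 4 antimicrobial and 6 mucosal members were higher and 4 matrix members lower. At 3-fold, 7 suprabasal, 3 kallikrein, 3 mucosal, 1 NRF2, 0 ATF4 and 0 AHR members were higher and 4 matrix members lower. Upper-quartile scaling left 6 mucosal and 1 AHR members higher. With the median of 50 neighbours subtracted, 4 NRF2, 2 ATF4 and 1 AHR members were higher. Other pseudocounts, filters and thresholds change the rule itself; the cause of the other shifts was not tested.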

Other observations

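Some genes outside the lists, chosen after their values were seen, were also higher in S264A. SOX9, a transcription factor of hair follicle and glandular progenitors, stood at 2.98 RPKM in empty vector, 21.4 in wild type and 14.1 in S264A. CYP27B1, which makes active vitamin D, stood at 0.435, 5.50 and 2.82 RPKM. HAS3, a hyaluronan synthase, stood at 9.73, 29.1 and 30.5 RPKM. IGFBP3 (6.82, 98.8 and 32.7 RPKM) and HLA-B (9.54, 61.6 and 37.7 RPKM) were highest in wild type. The actin-severing protein gelsolin (GSN; 12.8, 12.7 and 34.2 RPKM) and the ephrin EFNB1 (16, 21.5 and 41.8 RPKM) were high in S264A only.

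A pair of genes differed in opposite ways between the THG-1 lines. BASP1, a membrane-bound signalling protein, stood at 3.50 RPKM in empty vector, 22.1 in wild type and 1.07 in S264A, so wild type was 20.7-fold above S264A (14.5 to 30.5). H19, an imprinted noncoding RNA, stood at 14.3, 0.0559 and 5.81 RPKM, lower than in empty vector in both lines but far lower in wild type.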
